A study of Mus musculus with 12 samples.

Results

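The TRBV13 family, known in the older nomenclature as Vbeta8, comprises 3 mouse T cell receptor beta variable segments: TRBV13-1, TRBV13-2 and TRBV13-3. Its members were all productive TRB contigs of 6 receptor libraries that carried 1 of these segments, and the joint label TRBV12-2+TRBV13-2 was counted as TRBV13-2. They came to 1757 of 7257 productive TRB contigs: 359 of TRBV13-1, 950 of TRBV13-2 and 448 of TRBV13-3. These contigs lay in 1734 of the 6826 cells with a productive TRB contig. Of these 1734 cells, 163 held 2 or more TRB contigs and 273 had no TRA contig, and neither set entered a clonotype. The remaining 1298 cells, of 5207 cells with 1 TRB and at least 1 TRA, formed 829 of 3106 clonotypes (26.7%). A clonotype is the set of cells of 1 library that share the same TRB and TRA CDR3 nucleotide sequences, and the CDR3 is the loop that spans the junction of the rearranged segments.

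CD45+ leukocytes had been sorted from the brain parenchyma and from the meninges of C57BL/6 mice labelled 5xFADTg or NonTg. 5xFAD mice carry transgenes under the neuronal Thy1 promoter and develop amyloid plaques, and NonTg mice lack the transgenes. There were 2 libraries of NonTg parenchyma, 2 of 5xFADTg parenchyma, 1 of NonTg meninges and 1 of 5xFADTg meninges, and no treatment was named. Age, sex and the number of animals behind a library are not given in the labels, so p-values measure only the spread between these libraries. Whether this equals the spread between animals is not known. The libraries held 349 to 1453 cells with 1 TRB and at least 1 TRA, and 286 to 783 clonotypes, with the fewest in both meninges libraries. Pairs of libraries shared 0 to 4 cell barcodes, 23 in all over 15 pairs and 7056 cells.

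A T cell receptor recognises antigen through the combined surface of an alpha and a beta chain, and each chain is assembled by joining V, (D) and J segments with untemplated bases between them. The germline V segment supplies the CDR1 and CDR2 loops, while the CDR3 is made at the junction. In mice the Vbeta8 segments are best known as the usual partners of the invariant alpha chain of natural killer T (iNKT) cells, which joins TRAV11 (Valpha14) to TRAJ18 and recognises glycolipids on CD1d. Mucosal-associated invariant T (MAIT) cells, which see vitamin B metabolites on MR1, pair a TRAV1-TRAJ33 alpha chain with a limited set of beta segments that also includes Vbeta8.

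The 3 segments lie in a row on the plus strand of chromosome 6 (GRCm38, the build called mm10, GENCODE M21). Their coding V exons (exon 2 of each gene) are chr6:41116175-41116468 for TRBV13-1, chr6:41121539-41121832 for TRBV13-2 and chr6:41130292-41130585 for TRBV13-3, each of 294 bases. TRBV13-1 and TRBV13-2 are separated by 4927 bases and TRBV13-2 and TRBV13-3 by 8314 bases, and TRBV12-2 ends 2031 bases before TRBV13-2 starts. The V exons are shown because they encode the part of the receptor in which the members differ. Capitals mark bases that only that member carries at an aligned position.
TRBV13-1 (Vbeta8.3): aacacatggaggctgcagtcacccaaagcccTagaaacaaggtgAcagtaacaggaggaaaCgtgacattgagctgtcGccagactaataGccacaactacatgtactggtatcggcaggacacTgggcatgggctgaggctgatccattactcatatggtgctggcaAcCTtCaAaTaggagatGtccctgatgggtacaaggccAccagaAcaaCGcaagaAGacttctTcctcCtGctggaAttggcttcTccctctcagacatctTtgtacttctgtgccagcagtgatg
TRBV13-2 (Vbeta8.2): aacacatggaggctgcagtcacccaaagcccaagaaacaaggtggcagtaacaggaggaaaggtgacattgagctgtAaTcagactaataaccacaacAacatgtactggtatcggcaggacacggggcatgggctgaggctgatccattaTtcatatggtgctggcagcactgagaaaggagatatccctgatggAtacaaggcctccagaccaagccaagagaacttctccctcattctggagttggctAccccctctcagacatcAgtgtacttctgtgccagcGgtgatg
TRBV13-3 (Vbeta8.1): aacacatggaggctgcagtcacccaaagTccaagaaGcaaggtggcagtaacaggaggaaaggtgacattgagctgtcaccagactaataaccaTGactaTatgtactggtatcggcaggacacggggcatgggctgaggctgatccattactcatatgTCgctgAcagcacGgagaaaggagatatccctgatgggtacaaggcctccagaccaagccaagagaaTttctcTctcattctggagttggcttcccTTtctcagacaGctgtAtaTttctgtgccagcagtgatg
TRBV13-2 and TRBV13-3 were the closest pair, at 91.8% identity with 24 differences. TRBV13-1 and TRBV13-2 were 88.8% identical with 33 differences, and TRBV13-1 and TRBV13-3 86.1% identical with 41.

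The last 16 bases of each exon enter the CDR3, and 1 codon there sets TRBV13-2 apart. The germline CDR3 beginnings are shown with that codon in capitals.
TRBV13-1: tgtgccagcAGTgatg
TRBV13-2: tgtgccagcGGTgatg
TRBV13-3: tgtgccagcAGTgatg
The codon showed in the rearranged chains. The beta CDR3 began with cysteine, alanine, serine and glycine in 375 of 389 TRBV13-2 clonotypes (96.4%), in 2 of 206 TRBV13-1 clonotypes (0.971%), in 0 of 234 TRBV13-3 clonotypes and in 6 of 2277 clonotypes with another TRBV (0.264%). A serine in place of the glycine was found in 85.4% of TRBV13-1, 84.2% of TRBV13-3 and 77.5% of other clonotypes, and in 1 TRBV13-2 clonotype. The junction thus set TRBV13-2 apart, while TRBV13-1 and TRBV13-3 share the codon and cannot be told from each other by it.

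The members differed in how much of the germline end was kept. All 16 germline bases were kept in 121 of 389 TRBV13-2 clonotypes (31.1%; 22.7% to 40.4% over the libraries), in 47 of 206 TRBV13-1 clonotypes (22.8%; 16.7% to 33.3%) and in 28 of 234 TRBV13-3 clonotypes (12%; 8% to 22.2%). Each TRBV13-2 library was above every TRBV13-3 library, and TRBV13-1 overlapped both. This separation did not hold without iNKT-like clonotypes, which are defined below. The share was then 28.9% for TRBV13-2 (17.5% to 38.0% over the libraries) and 11.9% for TRBV13-3 (8.62% to 20.5%), so their ranges overlapped. For TRBV13-1 it was 21.3% (15.4% to 30.0%). The stretch between the V and J ends had a median of 10 bases in all 3 members, and the beta CDR3 a median of 14 amino acids. The shares of kept V ends were not tested. CDR3 length was close between members, at a mean over libraries of 13.9 ± 0.249 amino acids for TRBV13-1, 14.1 ± 0.184 for TRBV13-2 and 13.9 ± 0.261 for TRBV13-3 (SD, n = 6).

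The joint label was the common form of TRBV13-2. It was on 847 of the 950 TRBV13-2 contigs (89.2%; 87.3% to 96.7% over the libraries). Contigs with the joint label had a median length of 568 bases and those with TRBV13-2 alone 538 bases. Of 33 TRBV13-2 clonotypes of 2 or more cells, 9 held both labels, so the labels split single clones. Clonotypes were assigned by the label of most of their cells, with ties counted as joint. By this rule 337 of 389 TRBV13-2 clonotypes were of the joint kind, and these held all 33 expanded ones. TRBV12-2 on its own was on 168 clonotypes that stayed outside the family.

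TRBV13-2 was the most frequent of 21 TRBV segments in all 6 libraries. It had 389 clonotypes, ahead of TRBV3 with 256, while TRBV13-3 had 234 and TRBV13-1 206. TRBV13-2 was used by 11.6% and 13.4% of clonotypes in NonTg parenchyma libraries 1 and 2, by 11.4% and 12.6% in 5xFADTg parenchyma libraries 1 and 2, by 12.9% in NonTg meninges and by 14.7% in 5xFADTg meninges. The exact 95% binomial intervals of the 6 libraries all overlapped. TRBV13-3 was used by 8.75% and 6.90% in NonTg parenchyma, 9.15% and 5.75% in 5xFADTg parenchyma, 6.99% in NonTg meninges and 7.67% in 5xFADTg meninges. Its lowest and highest values were the 2 libraries of the same group, 5xFADTg parenchyma. TRBV13-1 was used by 4.95% and 7.13% in NonTg parenchyma, 6.40% and 6.77% in 5xFADTg parenchyma, 7.34% in NonTg meninges and 8.59% in 5xFADTg meninges, with both meninges libraries above all 4 of parenchyma.

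**Figure D1:**
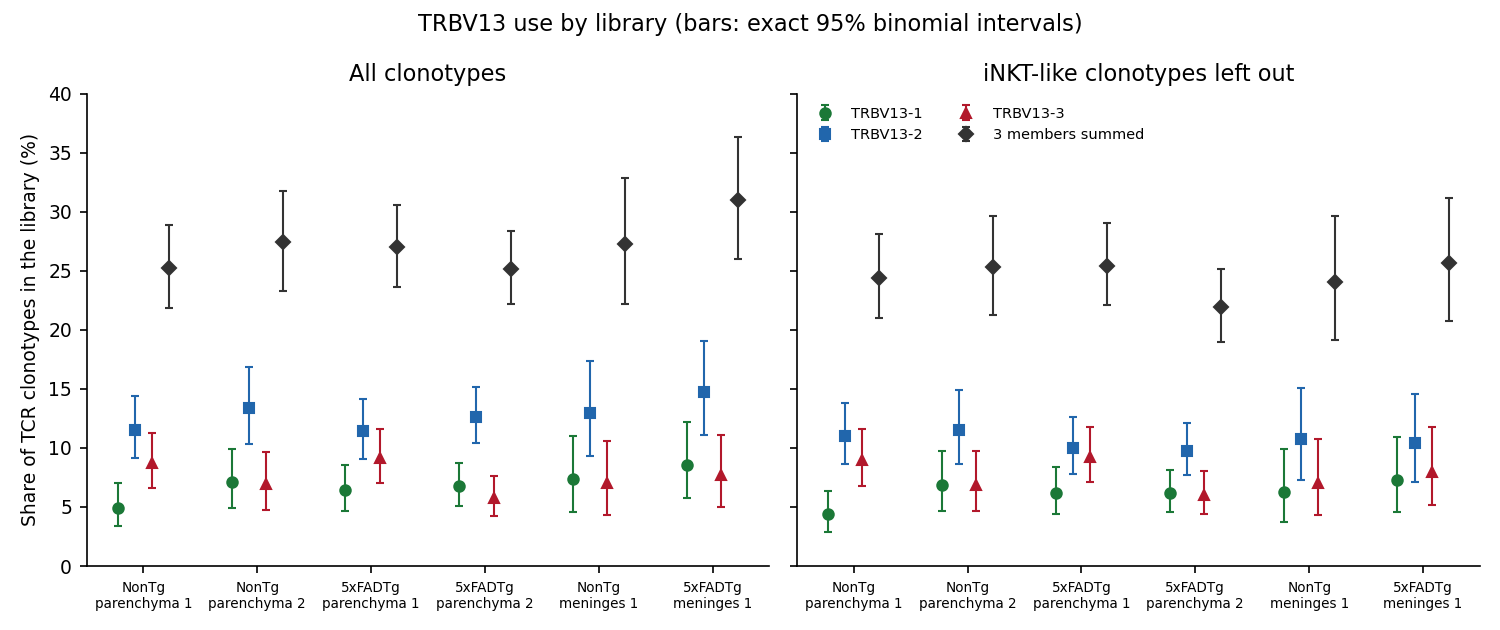
Share of the clonotypes of each library (y axis, %) that used TRBV13-1, TRBV13-2, TRBV13-3 or any of them (points, with exact 95% binomial intervals), for all clonotypes on the left and without iNKT-like clonotypes on the right. The 3 members together lie between 25.2% and 31.0% on the left and between 21.9% and 25.7% on the right.

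Together the members made up 25.2% and 27.4% of clonotypes in NonTg parenchyma, 27.0% and 25.2% in 5xFADTg parenchyma, 27.3% in NonTg meninges and 31.0% in 5xFADTg meninges. Without iNKT-like clonotypes, defined by TRAV11, TRAJ18 and an alpha CDR3 of 15 amino acids, the same shares were 24.4%, 25.3%, 25.4%, 21.9%, 24.1% and 25.7%. 5xFADTg meninges was the highest and 5xFADTg parenchyma library 2 the lowest library on both counts. Mean use of TRBV13-2 was 12.8 ± 1.22% over all clonotypes and 10.6 ± 0.649% without iNKT-like ones (SD, n = 6). For TRBV13-1 the means were 6.86 ± 1.20% and 6.21 ± 0.990%, and for TRBV13-3 they were 7.53 ± 1.26% and 7.69 ± 1.26%.

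Use of the members was compared between genotypes in the parenchyma, between tissues, and between expanded and single clones, always with the other V and J segments of both chains in the same fit. In 5xFADTg against NonTg parenchyma the log2 fold change was 0.16 (SE 0.24) for TRBV13-1, -0.04 (SE 0.18) for TRBV13-2 and -0.11 (SE 0.29) for TRBV13-3. None of the 3 passed an adjusted p of 0.05 in edgeR's quasi-likelihood test (0.967, 0.982 and 0.967), and neither did any of the 117 segments tested (0%), with 6 at an unadjusted p under 0.05 by edgeR and 0 by DESeq2. The share of TRBV13-1 was 6.04 ± 1.54% in NonTg and 6.59 ± 0.259% in 5xFADTg parenchyma, of TRBV13-2 12.5 ± 1.28% and 12 ± 0.856%, and of TRBV13-3 7.83 ± 1.3% and 7.45 ± 2.40% (SD, n = 2 each). The 2 groups overlapped for each member, while 32.5% of all segments tested did not overlap, and an exact permutation test of 2 against 2 libraries cannot go below 0.333.

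In meninges against parenchyma, with genotype as covariate, the log2 fold change was 0.35 (SE 0.23) for TRBV13-1, 0.19 (SE 0.18) for TRBV13-2 and -0.05 (SE 0.25) for TRBV13-3. Adjusted p was 0.958, 0.958 and 0.961 (edgeR), and 0% of the 119 segments tested passed, with 7 at an unadjusted p under 0.05 by edgeR and 2 by DESeq2. The TRBV13-1 share was 6.31 ± 0.955% (SD, n = 4) in parenchyma and 7.97 ± 0.881% (SD, n = 2) in meninges without overlap, a separation that 16% of all segments tested also showed. The two-sided exact permutation p was 0.133 (adjusted 0.756). Without iNKT-like clonotypes the TRBV13-1 shares of the tissues overlapped, at 4.41% to 6.90% in parenchyma and 6.30% and 7.29% in meninges. With 1 meninges library per genotype, tissue and library cannot be told apart within a genotype.

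iNKT-like alpha chains were mostly paired with the family. They were carried by 165 clonotypes in all, and 116 of these (70.3%) used TRBV13: 81 TRBV13-2, 28 TRBV13-1 and 7 TRBV13-3. TRBV29 with 24 of its 172 clonotypes and TRBV1 with 15 of its 151 were the next most frequent, and 10 further clonotypes used 6 other segments. A high iNKT-like share was thus not particular to the family, and the pooled value of other TRBV below hides these segments. Seen from the beta chain, 20.8% of TRBV13-2 clonotypes were iNKT-like (exact 95% interval 16.9% to 25.2%), 13.6% of TRBV13-1 (9.23% to 19.0%), 2.99% of TRBV13-3 (1.21% to 6.07%) and 2.15% of clonotypes with another TRBV (1.60% to 2.84%). All 116 TRBV13 clonotypes had 1 of 3 alpha CDR3, which differ in 1 codon. They are shown in their most frequent nucleotide form, with the bases that differ in capitals.
alpha CDR3 of 111 clonotypes: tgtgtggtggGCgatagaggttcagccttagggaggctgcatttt
alpha CDR3 of 4 clonotypes: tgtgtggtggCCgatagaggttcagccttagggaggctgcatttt
alpha CDR3 of 1 clonotype: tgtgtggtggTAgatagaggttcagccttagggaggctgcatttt
The form with 111 clonotypes was written by 5 different nucleotide sequences, of which the 1 shown made up 49.

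In NonTg parenchyma libraries 1 and 2, 7.14% and 16.7% of TRBV13-2 clonotypes were iNKT-like, in 5xFADTg parenchyma 16% and 28.3%, in NonTg meninges 21.6% and in 5xFADTg meninges 37.5%. For TRBV13-1 the values were 13.3%, 6.25%, 7.14%, 15.1%, 19.0% and 25% in the same order, and for TRBV13-3 they were 0%, 3.23%, 3.33%, 2.22%, 5.00% and 8%. The 0 rests on 53 clonotypes, which allows a share of up to 5.66%. TRBV13-3 was below both other members in all 6 libraries. Against TRBV13-2 the mean within-library difference was -17.6 percentage points (SD 8.55), and against TRBV13-1 it was -10.7 points (SD 5.81). Each gave a two-sided exact sign-flip p of 0.0312, the smallest that 6 libraries allow, and an adjusted p of 0.15 over the 24 tests between members. TRBV13-2 exceeded TRBV13-1 in 5 of 6 libraries, by a mean of 6.89 points (SD 7.45, exact sign-flip p 0.0938, adjusted 0.25), and NonTg parenchyma library 1 was the exception.

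**Figure D2:**
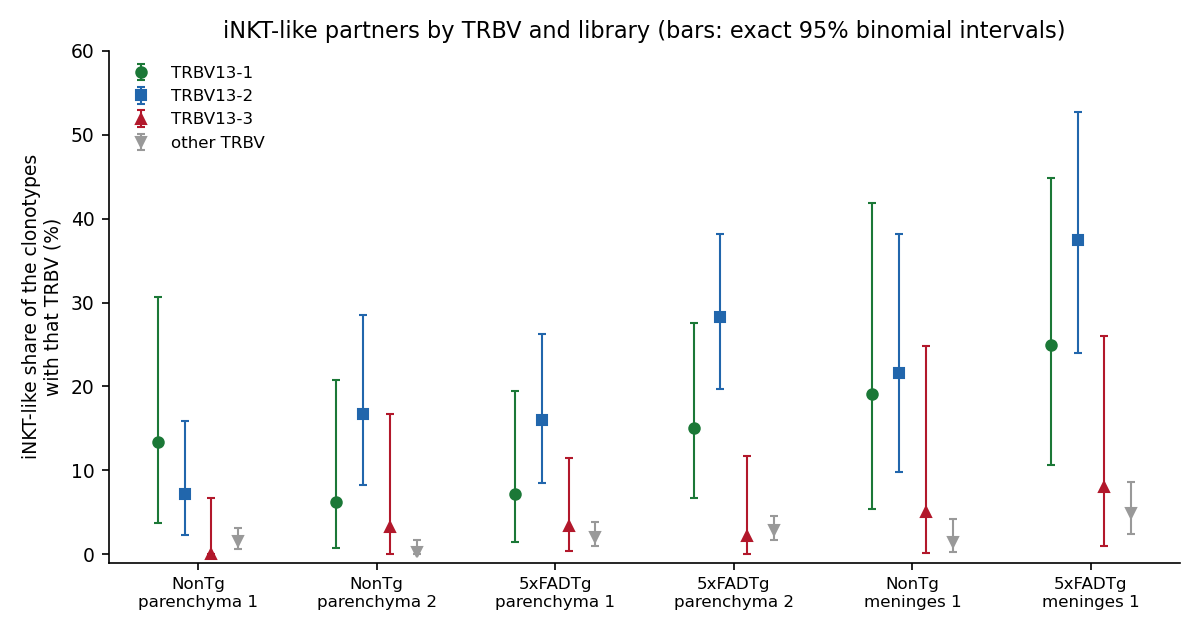
Share of the clonotypes with each TRBV (y axis, %) whose alpha chain was iNKT-like, by library (x axis), with exact 95% binomial intervals. TRBV13-2 and TRBV13-1 lie above all other TRBV pooled in each library, and TRBV13-3 runs from 0% to 8%.

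The family as a whole had 5.88% and 10.6% iNKT-like clonotypes in NonTg parenchyma, 9.60% and 18.8% in 5xFADTg parenchyma, 16.7% in NonTg meninges and 26.7% in 5xFADTg meninges. Clonotypes with another TRBV had 1.55%, 0.307%, 2.09%, 2.90%, 1.44% and 4.89% in the same order. The family was higher in 6 of 6 libraries, by a mean of 12.5 points (SD 6.37; exact sign-flip p 0.0312, adjusted 0.25 over the 8 features tested). Both meninges libraries had a higher iNKT-like share of TRBV13-1 and TRBV13-3 than any of parenchyma. For TRBV13-2 the NonTg meninges value lay below that of 5xFADTg parenchyma library 2. In meninges TRBV13-3 rests on 1 of 20 clonotypes in NonTg (exact interval 0.127% to 24.9%) and 2 of 25 in 5xFADTg (0.984% to 26.0%). Parenchyma libraries held 0 to 2 iNKT-like TRBV13-3 clonotypes each. For TRBV13-1 the meninges counts were 4 of 21 (5.45% to 41.9%) and 7 of 28 (10.7% to 44.9%). These differences between tissues were not tested. In segment use by tissue, 16% of all segments tested also showed no overlap.

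The iNKT-like TRBV13 clonotypes were almost all single cells. Of the 116, 3 had been found in 2 or more cells, against 74 of the other 713 family clonotypes (10.4%). The largest by far was a TRBV13-3 clone of 30 cells in 5xFADTg parenchyma library 1, and the other 2 were TRBV13-2 clones of 2 cells each in 5xFADTg parenchyma library 2. Their beta CDR3 are shown as a contrast to the fixed alpha chain, with the bases between the V and J ends in capitals.
TRBV13-3 with TRBJ1-1, 30 cells: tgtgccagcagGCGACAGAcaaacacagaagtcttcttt
TRBV13-2 with TRBJ2-4, 2 cells: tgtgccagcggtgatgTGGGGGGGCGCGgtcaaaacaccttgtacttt
TRBV13-2 with TRBJ2-5, 2 cells: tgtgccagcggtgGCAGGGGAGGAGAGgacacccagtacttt
In the fit of segment use between expanded and 1-cell clonotypes, TRAV11 and TRAJ18 were the 2 segments of 119 that passed (1.68%; 12 at an unadjusted p under 0.05, 10.1%), both lower among expanded clonotypes, with log2 fold changes of -2.98 (SE 0.56, adjusted p 2.12e-05, edgeR) and -1.70 (SE 0.39, adjusted p 0.00156). TRAJ18 was not called by DESeq2 (adjusted p 0.0817) or without 5xFADTg parenchyma library 2 (adjusted p 0.0658, edgeR), nor with cells in place of clonotypes (0.234) or with expansion counted from 3 cells (0.118). With clonotypes defined by the TRB chain alone neither segment passed (adjusted p 0.0598 for TRAV11 and 0.163 for TRAJ18, edgeR).

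The iNKT-like family members used a broad set of TRBJ segments, led by TRBJ2-7 in 26 of 116 and TRBJ1-1 in 18. TRBJ2-2 was in 0 of 116, which allows a share of up to 2.59%, while it was in 33 of the 713 other family clonotypes (4.63%), in 6 of 49 iNKT-like clonotypes with another TRBV (12.2%) and in 156 of 2228 remaining clonotypes (7%). TRBJ1-6 was in 0 of 116, 27 of 713 (3.79%), 1 of 49 (2.04%) and 61 of 2228 (2.74%) in the same order, the last 2 close to the limit of 2.59%. These counts were picked after their values were seen. The iNKT-like TRBV13-2 chains kept the full germline end in 39.5% of 81 clonotypes, against 28.9% of the 308 other TRBV13-2 clonotypes, and had a median beta CDR3 of 15 against 14 amino acids.

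MAIT-like alpha chains, defined by TRAV1, TRAJ33 and 12 amino acids in the alpha CDR3, were fewer, at 23 clonotypes in all. The family held 14 of them: 10 TRBV13-3, 3 TRBV13-2 and 1 TRBV13-1. They made up 4.27% of TRBV13-3 clonotypes (exact 95% interval 2.07% to 7.72%), 0.771% of TRBV13-2, 0.485% of TRBV13-1 and 0.395% of other clonotypes (0.181% to 0.749%). In NonTg parenchyma libraries 1 and 2, 1.89% and 6.45% of TRBV13-3 clonotypes were MAIT-like, in 5xFADTg parenchyma 5.00% and 8.89%, and in both meninges libraries none, on 20 and 25 clonotypes. TRBV13-3 was above TRBV13-2 and above TRBV13-1 in the 4 parenchyma libraries and tied with them at 0 in meninges (exact sign-flip p 0.125 for each, adjusted 0.25). All 14 were single cells. Within the family, iNKT-like chains were thus most frequent on TRBV13-2 and MAIT-like chains on TRBV13-3.

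Partner segments were then compared between TRBV13 clonotypes and clonotypes of the same library with another TRBV, over 99 TRAV, TRAJ and TRBJ segments. Of these, 4 passed an adjusted p of 0.05 (4.04%; edgeR's quasi-likelihood test), 2 higher and 2 lower (2.02% each), and 10 had an unadjusted p under 0.05 (10.1%). TRAV11 was in 5.88% and 11.4% of family clonotypes in NonTg parenchyma, 9.60% and 20.3% in 5xFADTg parenchyma, 16.7% in NonTg meninges and 26.7% in 5xFADTg meninges, and in 0.307% to 4.89% of the others. Its log2 fold change was 2.64 (SE 0.22, adjusted p 3.57e-28), and that of TRAJ18 was 2.20 (SE 0.19, adjusted p 1.42e-25), both higher in 6 of 6 libraries. TRBJ2-2 was lower, with 33 of 829 clonotypes (3.98%) against 162 of 2277 (7.11%), a log2 fold change of -0.84 (SE 0.24, adjusted p 0.0353) and a lower share in 6 of 6 libraries. TRAV9-4 was also lower, with 11 of 829 (1.33%) against 77 of 2277 (3.38%), a log2 fold change of -1.33 (SE 0.42, adjusted p 0.0436) and a lower share in 5 of 6 libraries.

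The calls of TRAV11 and TRAJ18 held in DESeq2 and without any 1 library, whereas those of TRBJ2-2 and TRAV9-4 did not. TRBJ2-2 was lost without NonTg parenchyma library 1 (adjusted p 0.259), 5xFADTg parenchyma library 1 (0.166) or 2 (0.0781) or 5xFADTg meninges (0.151), and TRAV9-4 without NonTg parenchyma library 1 (0.113) or 2 (0.432) or 5xFADTg parenchyma library 1 (0.143) or 2 (0.463), all by edgeR. With iNKT-like clonotypes left out on both sides, 0 of 98 segments passed (0%), with 7 at an unadjusted p under 0.05 by edgeR and 1 by DESeq2. The smallest p belonged to TRAV9-4 (log2 fold change -1.14, SE 0.42, adjusted p 0.352) and TRAV4-4 (0.93, SE 0.34, adjusted p 0.352). TRAV1, the MAIT segment, was at 1.49 (SE 0.60, adjusted p 0.447) and TRBJ2-2 at -0.60 (SE 0.25, adjusted p 0.525). The median log2 fold change over all segments was -0.13 with and -0.04 without iNKT-like clonotypes.

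**Figure D3:**
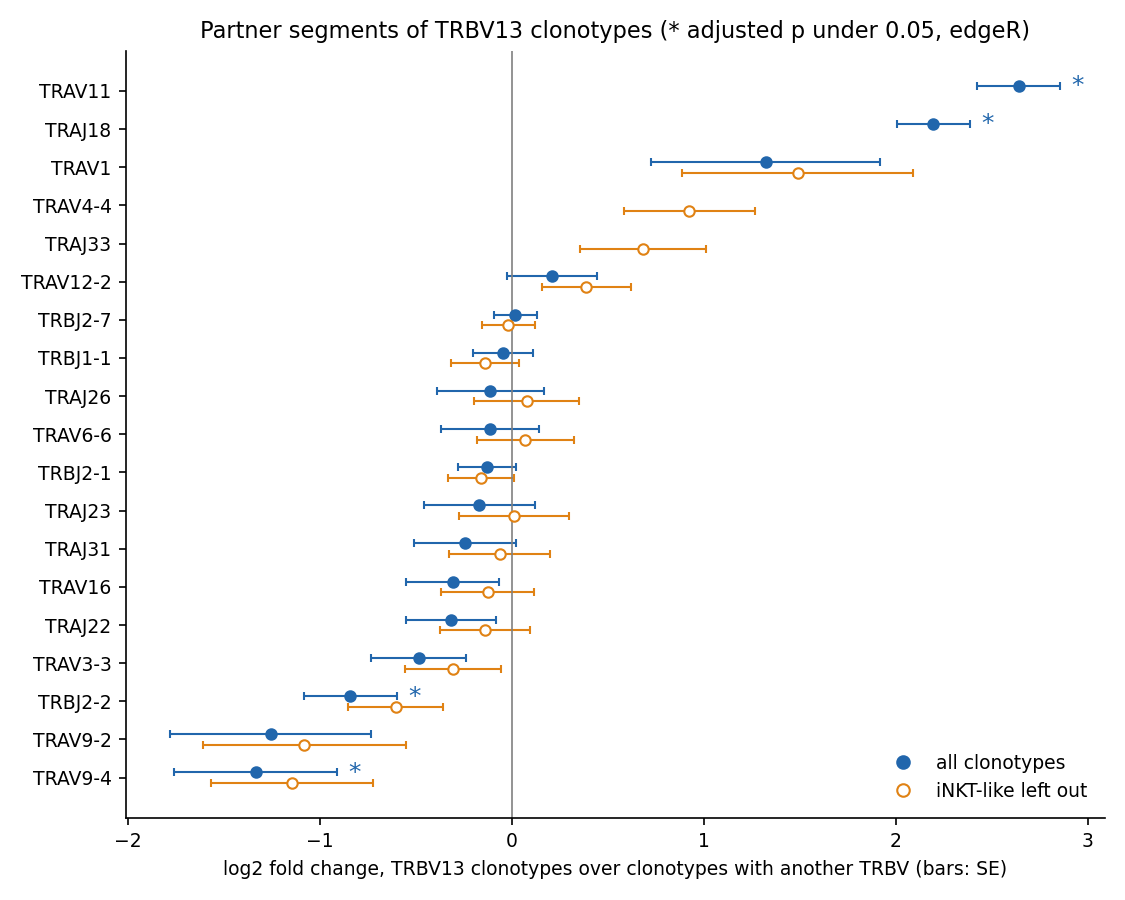
Log2 fold change (x axis) of named TRAV, TRAJ and TRBJ segments in TRBV13 clonotypes over clonotypes with another TRBV, with standard errors, for all clonotypes (filled) and without iNKT-like clonotypes (open); asterisks mark an adjusted p under 0.05. TRAV11 at 2.64 and TRAJ18 at 2.20 stand apart, and no open point carries an asterisk.

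Beyond the invariant chains, the alpha repertoire of the family was wide. The most used TRAV after TRAV11 (120 clonotypes) were TRAV12-2 with 50, TRAV16 with 40, TRAV6-6 with 39 and TRAV3-3 with 36 of 829. Without iNKT-like clonotypes TRAV12-2 was at 7.01% of 713 against 5.34% of 2228 others, TRAV16 at 5.61% against 6.10%, TRAV6-6 at 5.47% against 5.25% and TRAV3-3 at 5.05% against 6.28%. TRAJ22 with 42, TRAJ31 with 35, TRAJ26 with 34 and TRAJ23 with 31 clonotypes followed TRAJ18 with 130. Among TRBJ segments, TRBJ2-7 led with 164 clonotypes (19.8%, against 19.5% of others), and TRBJ1-1 and TRBJ2-1 had 93 each. None of these except TRAV11 and TRAJ18 passed the test.

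The members were also set singly against clonotypes with a TRBV outside the family. These 3 comparisons share their controls, so their values stand side by side only. For TRBV13-2, 3 of 98 segments passed (3.06%; edgeR), 2 of them higher (2.04%), and 9 had an unadjusted p under 0.05 (9.18%). They were TRAV11 at a log2 fold change of 3.20 (SE 0.26, adjusted p 7.44e-28), TRAJ18 at 2.71 (SE 0.23, adjusted p 1.17e-25) and TRAV9-4. TRAV9-4 was in 2 of 389 TRBV13-2 clonotypes, both in 5xFADTg meninges, against 77 of 2277 (adjusted p 0.0317), a ratio of 0.152 with an exact 95% counting interval of 0.0181 to 0.57. For TRBV13-1, 3 of 98 also passed (3.06%), 2 of them higher (2.04%), with 9 at an unadjusted p under 0.05 (9.18%). They were TRAV11 at 2.57 (SE 0.43, adjusted p 3.19e-07), TRAJ18 at 2.17 (SE 0.38, adjusted p 7.13e-07) and TRAV9-4, which was in 0 of 206 clonotypes (adjusted p 0.0411). Set against a floor of 3 counts over the group, that is at least 2.32-fold lower than in other clonotypes. DESeq2 kept TRAV11 and TRAJ18 for TRBV13-1, but for TRBV13-2 it called no segment, with 2 at an unadjusted p under 0.05. There TRAV11 was at 3.43 (SE 2.90) and TRAJ18 at 2.80 (SE 2.90), each with an adjusted p of 0.996, and the dispersion of both stood at DESeq2's upper bound of 12. With a mean dispersion trend, added after the data were seen, DESeq2 called TRAV11 (3.31, SE 0.45, adjusted p 1.49e-11) and TRAJ18 (2.78, SE 0.40, adjusted p 3.15e-10) for TRBV13-2 and not TRAV9-4 (adjusted p 0.263). The TRAV9-4 call of TRBV13-1 was lost without any 1 library (adjusted p 0.0553 to 0.253), and that of TRBV13-2 without any but 5xFADTg meninges (0.0506 to 0.228).

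For TRBV13-3 other segments came first. TRAV9-4 was in 9 of 234 TRBV13-3 clonotypes (3.85%), close to the 3.38% of clonotypes outside the family. Its only segment past the threshold was TRAV1 (1 of 98, 1.02%; 6 at an unadjusted p under 0.05, 6.12%), with 11 of 234 clonotypes (4.70%) against 16 of 2277 (0.703%). TRAV1 was in 3.77% and 6.45% of TRBV13-3 clonotypes in NonTg parenchyma, 5.00% and 8.89% in 5xFADTg parenchyma and none in the meninges, and in 0.341% to 1.10% of others. The log2 fold change was 2.63 (SE 0.67, adjusted p 0.00966, edgeR) and stayed at 2.63 without iNKT-like clonotypes (adjusted p 0.0111, 1 of 97 segments, 1.03%; 6 at an unadjusted p under 0.05, 6.19%). Of the 11, 10 were MAIT-like, and with MAIT-like clonotypes also left out 0 of 96 segments passed and TRAV1 fell below the minimum of 10 clonotypes. The call was lost without NonTg parenchyma library 1 (adjusted p 0.0828) or 2 (0.0891) or 5xFADTg parenchyma library 1 (0.0748) or 2 (0.166).

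TRAV4-4 came next for TRBV13-3, with 16 of 234 clonotypes (6.84%) against 51 of 2277 (2.24%). It was in 9.43% and 6.45% of TRBV13-3 clonotypes in NonTg parenchyma, 5.00% and 2.22% in 5xFADTg parenchyma, 10.0% in NonTg meninges and 12% in 5xFADTg meninges, above the other clonotypes in 6 of 6 libraries. The adjusted p was 0.0609 in edgeR, and without iNKT-like clonotypes it was 0.0596 in edgeR and 0.0227 in DESeq2, which did not call it with a mean dispersion trend. TRAJ48 was in 0 of 234 TRBV13-3 clonotypes against 56 of 2277, at least 1.92-fold lower against a floor of 3 counts over the group (adjusted p 0.0609). Without iNKT-like clonotypes no segment passed for TRBV13-1 or TRBV13-2 (0 of 97 each, 0%; 8 and 4 at an unadjusted p under 0.05 by edgeR, 8.25% and 4.12%, and 3 and 4 by DESeq2). TRAV9-4 was still in 0 of 178 TRBV13-1 clonotypes (at least 2.05-fold lower against the same floor, adjusted p 0.255, edgeR) and in 2 of 308 TRBV13-2 clonotypes (ratio 0.188, exact 95% counting interval 0.0224 to 0.702, adjusted p 0.458).

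**Figure D4:**
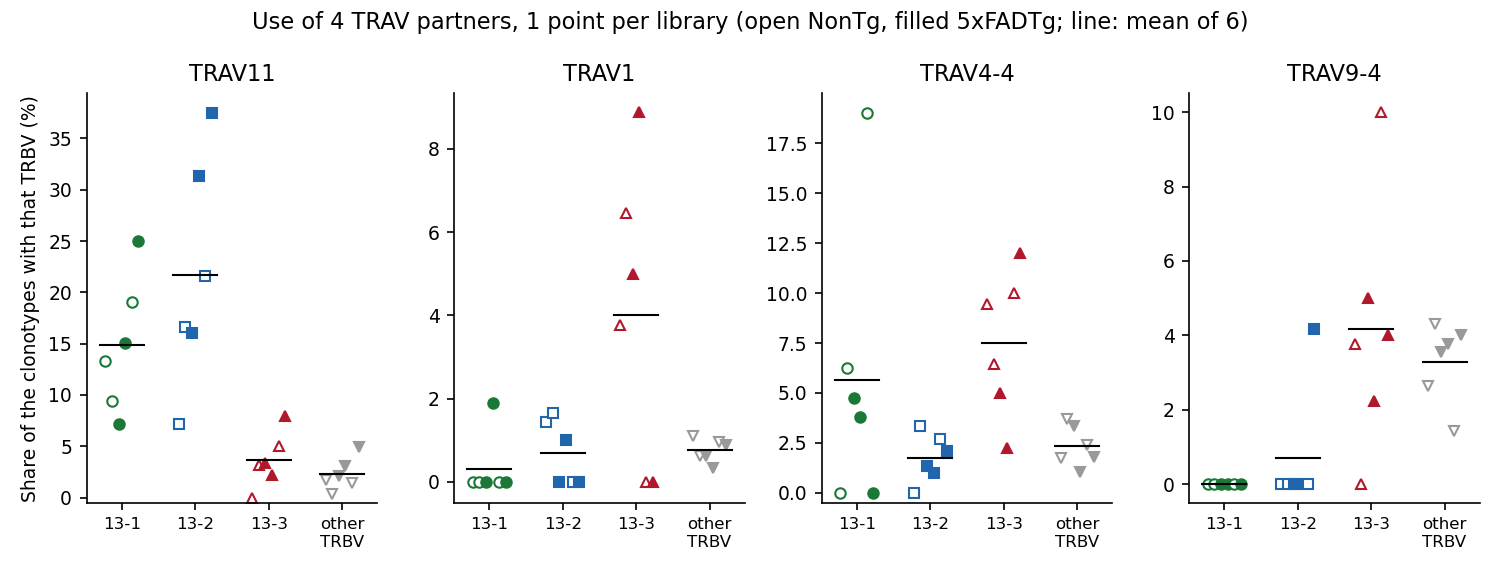
Share of the clonotypes with each TRBV (y axis, %, separate scale per panel) that carried TRAV11, TRAV1, TRAV4-4 or TRAV9-4, with 1 point per library (open NonTg, filled 5xFADTg) and the mean of the 6 libraries as a line. TRAV11 is high in TRBV13-1 and TRBV13-2, TRAV1 reaches 8.89% in TRBV13-3, and TRAV9-4 is at 0 in each TRBV13-1 library and in 5 of 6 TRBV13-2 libraries.

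Direct comparisons between members without iNKT-like clonotypes called no segment in any pair: 0 of 57 for TRBV13-2 against TRBV13-1, 0 of 46 for TRBV13-3 against TRBV13-1 and 0 of 59 for TRBV13-3 against TRBV13-2 (0% each). At an unadjusted p under 0.05 there were 0, 2 and 3 segments by edgeR (0%, 4.35% and 5.08%) and 1, 4 and 5 by DESeq2. For TRBV13-3 against TRBV13-2 the smallest p belonged to TRAV4-4 (log2 fold change 1.72, SE 0.68, adjusted p 0.588), TRAV1 (2.09, SE 0.89, adjusted p 0.588) and TRAV9-4 (9 of 227 against 2 of 308 clonotypes, adjusted p 0.872). Outside iNKT-like clonotypes, TRAV1, TRAV4-4 and TRAV9-4 were thus not shown to differ between TRBV13-3 and TRBV13-2. The iNKT-like clonotypes, with their TRAV11 and TRAJ18, were not in these fits.

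The share of clonotypes with a TRBJ1 segment was lower for TRBV13-3 than for TRBV13-1 in 6 of 6 libraries, at 33.6 ± 6.70% against 42.5 ± 9.12% (SD, n = 6), with an exact sign-flip p of 0.0312 and an adjusted p of 0.15. TRBV13-2 contigs had fewer UMIs, counted as molecules of the chain per cell, than those of both other members in 6 of 6 libraries. The mean log2 UMI count was 2.84 ± 0.261 for TRBV13-2, 3.23 ± 0.255 for TRBV13-1 and 3.14 ± 0.203 for TRBV13-3 (exact sign-flip p 0.0312 for each pair with TRBV13-2, adjusted 0.15). Against other clonotypes the family as a whole had a log2 UMI count of 3.02 against 3.02. The fraction of a clonotype's cells with 2 or more TRA chains had a mean of 9.95 ± 2.14% in the family and 10.6 ± 1.57% in others (exact sign-flip p 0.719). No feature passed after adjustment over the 8 tests against other clonotypes or the 24 between members, where the smallest adjusted p was 0.25 and 0.15.

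Clonotypes of 2 or more cells were counted as expanded. In all, 77 of 829 family clonotypes were expanded (9.29%; exact 95% interval 7.40% to 11.5%), against 347 of 2277 others (15.2%; 13.8% to 16.8%). The expanded share of the family was 10.5% and 9.76% in NonTg parenchyma, 10.2% and 10.7% in 5xFADTg parenchyma, 5.13% in NonTg meninges and 5.94% in 5xFADTg meninges. Others had 16.6%, 15.6%, 15.4%, 18.8%, 12% and 5.33% in the same order, so the family was lower in 5 of 6 libraries and 5xFADTg meninges was the exception. The mean difference was -5.28 points (SD 3.04; exact sign-flip p 0.0625, adjusted 0.25), and without iNKT-like clonotypes -4.44 points (SD 3.52; p 0.0625, adjusted 0.328).

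By member, TRBV13-1 was rarer among expanded than among 1-cell clonotypes in 6 of 6 libraries, a pattern that 5.88% of all segments tested showed. Its share of expanded clonotypes was 2.20% and 6.35% in NonTg parenchyma, 4.35% and 5.34% in 5xFADTg parenchyma and 0% in both meninges libraries, on 29 and 18 expanded clonotypes. Its share of 1-cell clonotypes was 5.44%, 7.25%, 6.74%, 7.06%, 8.17% and 9.09%. The log2 fold change was -0.77 (SE 0.33, adjusted p 0.29, edgeR), and the mean difference in share was -4.25 points (exact sign-flip p 0.0312, adjusted 0.413). TRBV13-3 was at -0.26 (SE 0.27, adjusted p 0.768).

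TRBV13-2 made up 6.59% and 6.35% of expanded clonotypes in NonTg parenchyma and 6.52% and 6.11% in 5xFADTg parenchyma, against 12.4%, 14.5%, 12.2% and 14% of 1-cell clonotypes. In the 4 parenchyma libraries the expanded values all lay below the 1-cell values. How many of all segments did so in these 4 libraries was not counted, and the 4 were not tested alone. In the meninges TRBV13-2 went the other way, with 13.8% of expanded against 12.8% of 1-cell clonotypes in NonTg and 27.8% against 14% in 5xFADTg, on 4 and 5 expanded clonotypes. Over all 6 libraries the log2 fold change was -0.75 (SE 0.19, adjusted p 0.0826, edgeR). It passed without NonTg meninges (-0.84, adjusted p 0.0431), without 5xFADTg meninges (-0.93, adjusted p 0.0126) and with TMM scaling (-1.06, adjusted p 0.000355), which moved the median of all segments by -0.30. With iNKT-like clonotypes left out the value was -0.57 (adjusted p 0.45), and with cells in place of clonotypes it was 0.18 (adjusted p 0.779). In a fit of the expansion effect by tissue, added after the data were seen, the difference between meninges and parenchyma was 1.60 (SE 0.46) with an unadjusted p of 0.0129 and an adjusted p of 0.789 (edgeR, 0 of 119 segments called, 4 at an unadjusted p under 0.05, 3.36%). The other members went the opposite way in that fit: TRBV13-3 was at -1.70 (SE 1.08, unadjusted p 0.169, adjusted p 0.834), and TRBV13-1, with 0 expanded clonotypes in either meninges library, had a negative fitted value that is no bound (unadjusted p 0.0268, adjusted p 0.798).

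**Figure D5:**
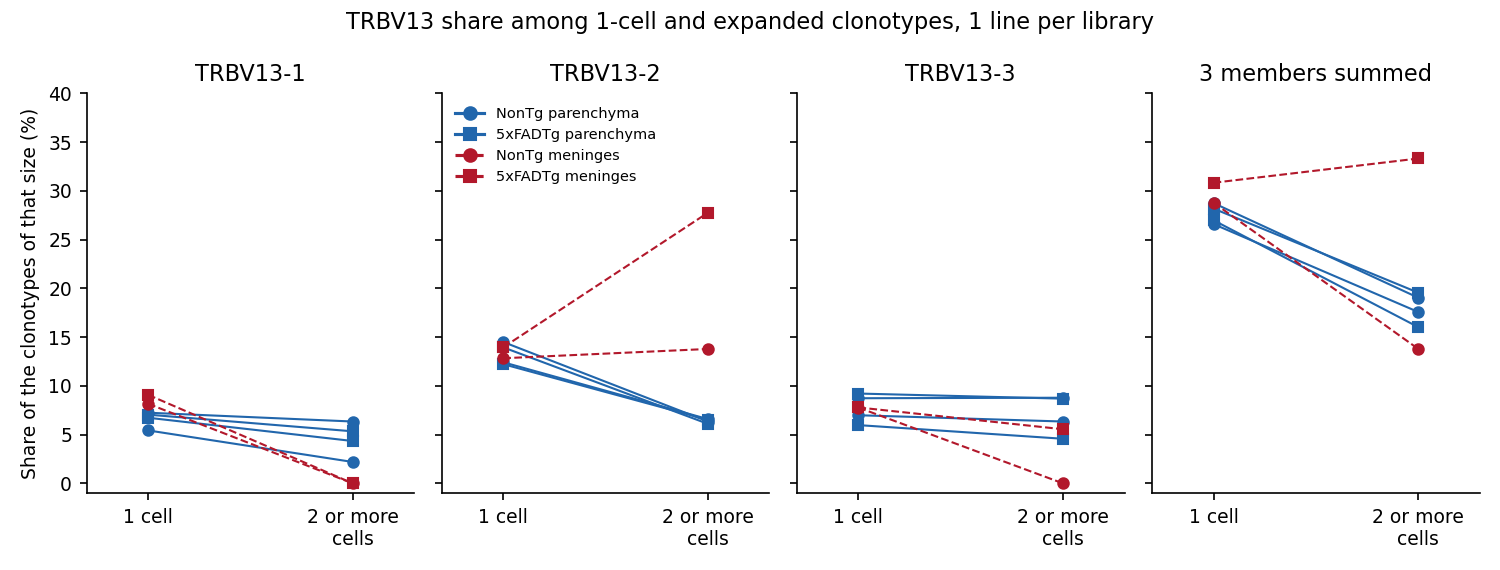
Share of TRBV13-1, TRBV13-2, TRBV13-3 and all 3 members (y axis, %) among the 1-cell and the expanded clonotypes of each library, 1 line per library (blue parenchyma, red dashed meninges; circles NonTg, squares 5xFADTg). TRBV13-2 lies between 6.11% and 6.59% of expanded clonotypes in parenchyma and at 13.8% and 27.8% in meninges.

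Counted as cells, the share of the family moved with its largest clone, most in NonTg parenchyma library 2. The family made up 21.6% and 33.3% of cells in NonTg parenchyma, 25.6% and 21.1% in 5xFADTg parenchyma, 25.8% in NonTg meninges and 29.2% in 5xFADTg meninges. Without the largest family clone of each library the values were 19.0%, 24.0%, 23.2%, 17.7%, 24.5% and 28.6%. Of 52 clonotypes with 10 or more cells in all libraries, 11 were of the family: 7 TRBV13-2, 2 TRBV13-1 and 2 TRBV13-3, all in parenchyma. The other 41 had another TRBV, so large clones were not particular to the family. In parenchyma, 47.0 ± 7.20% of family cells lay in expanded clonotypes, against 53.5 ± 5.22% of other cells (SD, n = 4). NonTg parenchyma library 2 went the other way, at 56.5% against 46.2%. In meninges the values were 14.9 ± 4.06% and 24.0 ± 7.52% (SD, n = 2). The largest family clone was a TRBV13-2 clone of 94 cells in NonTg parenchyma library 2, the biggest clone of that library, with 12.3% of its cells (exact 95% interval 10.0% to 14.8%) and 36.9% of the family cells there. In each of the other 3 parenchyma libraries the largest family clone was also TRBV13-2, with 34 cells in NonTg library 1, 38 in 5xFADTg library 1 and 60 in 5xFADTg library 2.

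The chains of these 4 clones are shown because they were the largest of the family, with beta bases between the V and J ends in capitals. None had an invariant alpha chain.
94 cells, TRBV13-2 with TRBJ2-7: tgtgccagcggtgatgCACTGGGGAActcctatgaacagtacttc
alpha chain, TRAV8N-2 with TRAJ40: tgtgctacaggaaactacaaatacgtcttt
60 cells, TRBV13-2 with TRBJ1-1: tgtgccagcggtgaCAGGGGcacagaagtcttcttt
alpha chain, TRAV12D-3 with TRAJ21: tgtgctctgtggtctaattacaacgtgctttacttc
38 cells, TRBV13-2 with TRBJ2-7: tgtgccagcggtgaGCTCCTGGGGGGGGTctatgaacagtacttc
alpha chain, TRAV8N-2 with TRAJ21: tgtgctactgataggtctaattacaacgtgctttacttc
34 cells, TRBV13-2 with TRBJ1-2: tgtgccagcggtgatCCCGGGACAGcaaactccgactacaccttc
alpha chain, TRAV7D-4 with TRAJ26: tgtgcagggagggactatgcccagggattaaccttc
The 4 beta chains shared the TRBV13-2 codon and kept 14 to 16 germline V bases, and 6 to 15 bases lay between V and J. The 60-cell and 38-cell clones came from different 5xFADTg libraries, used different TRAV and both used TRAJ21. The 94-cell NonTg clone and the 38-cell 5xFADTg clone both used TRAV8N-2 and TRBJ2-7. Segments shared between these 4 clones were not tested. The next largest family clone of each parenchyma library was a TRBV13-1 clone of 14 cells and 1 of 17 cells in NonTg, and the iNKT-like TRBV13-3 clone of 30 cells and a TRBV13-3 clone of 14 cells in 5xFADTg.

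In the meninges the largest family clones were small. The NonTg meninges library held 6 cells of the clone with 34 cells in NonTg parenchyma library 1 and 5 cells of the clone with 94 cells in NonTg parenchyma library 2. The clone of 6 cells was the largest of any TRBV there. The largest clone with another TRBV also had 5 cells, so the other family clone was tied for second. In 5xFADTg meninges the largest family clone, a TRBV13-2 clone, had 3 cells and was found in no other library.

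Clones shared between libraries stayed within a genotype. Of 803 distinct TRBV13 alpha-beta pairs, 26 were found in 2 libraries and none in more than 2. All 26 joined the meninges library and a parenchyma library of the same genotype, and none joined 2 parenchyma libraries. The tissues of a genotype thus shared clones, while the tissue comparisons treated their libraries as independent. None of the 26 was iNKT-like. A pair holds only the TRA of most UMIs, so a clone with 2 TRA can count as 2 pairs. For example, 1 TRBV13-2 beta CDR3 of 1 nucleotide sequence had 4 clonotypes with 2 alpha partners. They lay in 5xFADTg meninges and 5xFADTg parenchyma library 1. In NonTg, 14 of 78 meningeal family clonotypes (17.9%; exact 95% interval 10.2% to 28.3%) were also in parenchyma, against 51 of 208 others (24.5%; 18.8% to 30.9%). In 5xFADTg the counts were 12 of 101 (11.9%; 6.29% to 19.8%) and 32 of 225 (14.2%; 9.94% to 19.5%). Without iNKT-like clonotypes they were 14 of 65 (21.5%) against 51 of 205 (24.9%) in NonTg and 12 of 74 (16.2%) against 31 of 214 (14.5%) in 5xFADTg. The intervals overlapped in both genotypes, and with 2 meninges libraries no test was made.

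By member, 5 of 21 TRBV13-1, 7 of 37 TRBV13-2 and 2 of 20 TRBV13-3 meningeal clonotypes were shared in NonTg, and 2 of 28, 7 of 48 and 3 of 25 in 5xFADTg. Of 785 distinct beta CDR3 amino acid sequences of the family, 29 were in 2 libraries and 0 in more. In 25 of the 29 the whole pair was shared. In the remaining 4 the beta chain was paired with different alpha chains, and 2 of these 4, both TRBV13-2, had been made by different nucleotide sequences in the 2 libraries.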

How the data were processed

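Paired V(D)J libraries of CD45+ cells, made per the labels with the 10x Chromium Immune Profiling chemistry, were analysed as the contig tables the authors deposited. The submitters' processing notes name Cell Ranger 6.0 and mm10. UMI and read counts per contig, whole numbers, are the authors' deposited values. The 6 gene expression samples were not analysed here.

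Productive contigs were kept. Cells with 1 TRB and at least 1 TRA contig formed clonotypes by library and CDR3 nucleotides, with the TRA of most UMIs as partner. Cells with 2 or more TRB, which can be doublets, were left out. Cells with 2 or more TRA were kept, and no doublet caller was run. TRAV copies within the duplicated locus were merged. Clonotypes, not UMIs, were counted per V or J segment. Segments with at least 10 clonotypes were tested with edgeR 4.0.16 (quasi-likelihood, library sizes being clonotype totals) and Benjamini-Hochberg adjustment over all segments of a fit. DESeq2 1.42.0 was an alternative (with a mean dispersion trend added after the data were seen), as were TMM factors, cells in place of clonotypes, at least 2 UMIs per chain and leaving out each library. Members were compared with other clonotypes of the same library, with library as covariate, and receptor features by two-sided exact sign-flip tests over 6 libraries. All 3 members were named in each comparison, and partner segments where they passed the threshold, were among the most used (5 TRAV, 5 TRAJ, 3 TRBJ) or had the 3 smallest p in a direction. The scripts were tested on simulated data. Intervals are exact (Clopper-Pearson, 95%), and they and the limits from a count of 0 (3 counts) cover counting error only. The members and lists were chosen with earlier results of these data known.

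The replicate numbers of the parenchyma libraries were not taken as pairs: over 117 segments the correlation of same-numbered libraries' deviations was 0.0762. V exons came from GENCODE M21 (GRCm38) and older names from RefSeq.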

Additional observations from a re-analysis of the deposited data

Results flagged for a closer look

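In 56 groups of 4 or 6 values tested for 1 value far from the others, 3 were found, about as many as the 1 in 20 that chance alone would give.

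In 5xFADTg meninges the expanded share of family clonotypes exceeded that of other clonotypes by 0.607 percentage points, against -8.11 to -5.28 points in the 5 other libraries. The same library had a family share 2.49 points higher among expanded than among 1-cell clonotypes, where the others had -15.0 to -8.63 points. It held 18 expanded clonotypes, 6 of them of the family, and both values rest on these same clonotypes. In NonTg meninges the TRBV13-3 share was 7.78 points lower among expanded clonotypes (-7.78), and the others ranged from -2.24 to 0.0534 points. That library held 29 expanded clonotypes and 0 were TRBV13-3, which allows a share of up to 10.3%.

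Parenchyma and meninges went in opposite directions in 2 comparisons. The TRBV13-2 share among expanded minus 1-cell clonotypes had a mean of -6.89 points in the 4 parenchyma libraries and was 0.953 and 13.8 points in the meninges libraries. The test of this difference by edgeR gave an adjusted p of 0.789. The expanded share of TRBV13-3 minus that of TRBV13-2 had a mean of 5.84 points in parenchyma and was -10.8 and -6.42 points in meninges (mean -8.61), a difference that was not tested.

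Among contigs outside the comparisons, 134 of 1031 nonproductive TRB contigs with a V segment carried a TRBV13 segment (13%; exact 95% interval 11% to 15.2%), against 1757 of 7257 productive ones (24.2%). By library the nonproductive share ran from 7.44% in 5xFADTg parenchyma library 2, which held 390 of the 1031 contigs, to 24.8% in NonTg parenchyma library 2. It was below the productive share in each library, but in NonTg parenchyma library 2 (17.7% to 33.0%) and NonTg meninges (11.4% to 33.9%) its exact 95% interval held the productive share of 31.2% and 25.9%. The 134 were 48 of TRBV13-1, 55 of TRBV13-2 and 31 of TRBV13-3. Contigs were counted per cell here, so an expanded clone can count many times on either side. The intervals treat these contigs as independent.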

How the results depend on the processing

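Of 922 alternative values of 84 results, 785 kept direction and side of the threshold (counts of calls within 1.5 times), and 55 changed sign. The cause of these changes was not tested. By genotype, leaving out 1 library gave -0.11 to 0.41 (log2) for TRBV13-1, -0.15 to 0.062 for TRBV13-2 and -0.47 to 0.20 for TRBV13-3, and -0.541 to 1.64, -1.32 to 0.487 and -2.08 to 1.32 points of share. Cells in place of clonotypes gave -0.30 and 0.18 (log2) and -1.04 and 0.761 points for TRBV13-1 and TRBV13-3, with 1 segment called, and all 6 libraries with tissue as covariate gave 0.021 for TRBV13-2. The fit with the replicate number as a block, although the numbers are not shown to pair the libraries, changed no call. It called 0 segments and gave 0.14, -0.05 and -0.07 for TRBV13-1, TRBV13-2 and TRBV13-3.

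By tissue, 1 segment was called with TRB alone and 2 with at least 2 UMIs. TRBV13-3 was at 0.079 with cells (0.356 points), 0.0096 with at least 2 UMIs and 0.0080 with TMM, and at -0.22 to 0.10 (-0.935 to 0.198 points) without 1 library. TRBV13-2 was at -0.136 points with cells and at -0.44 (-0.603 points) with the joint label apart. By expansion, 0 segments were called with TRB alone or without iNKT-like clonotypes, 1 with cells, with DESeq2 (either dispersion trend) or from 3 cells, and 1 to 3 without 1 library. TRBV13-2 was at 0.18 with cells (3.03 points), -1.06 with TMM, 0.0847 points without iNKT-like clonotypes and -0.93 to -0.58 without 1 library. With the joint label apart it was at -5.38, a fitted value and no bound, since 0 of 52 plain-labelled clonotypes were expanded, with ties between labels counted as joint.

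For partners, 2 segments were called for the family with cells, at least 2 UMIs, TMM or DESeq2 (either trend), and 2 to 4 without 1 library. TRBJ2-2 and TRAV9-4 were the calls lost there. TMM called 13 for TRBV13-1, with the median of all segments moved by -0.62, 5 without iNKT-like clonotypes (moved by -0.72) and 2 for TRBV13-3. DESeq2 called 0 for TRBV13-2 (2 with the mean dispersion trend added after the data were seen) and 2 for TRBV13-3 without iNKT-like clonotypes, where leaving out MAIT-like clonotypes too gave 0. Without 1 library 0 to 1 were called for TRBV13-3, with or without iNKT-like clonotypes, and 0 to 1 for TRBV13-2 without them.

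Among features of the family, the share with 2 or more TRA was 0.963 points without iNKT-like clonotypes and -1.13 to 0.348 without 1 library, TRA length -0.300 with cells and -0.0915 without iNKT-like clonotypes, and log2 UMIs 0.00685, 0.00500 and -0.0521 to 0.0202. For TRBV13-3 against TRBV13-1, the share with 2 or more TRA was -0.414 without iNKT-like clonotypes and -0.0813 to 1.87 without 1 library, and TRB length 0.0389 with cells and -0.0704 to 0.0901 without 1 library. For TRBV13-3 against TRBV13-2, the expanded share was -18.3 with cells, -1.20 without iNKT-like clonotypes and -0.0810 to 3.39 without 1 library, and TRA length 0.533 with cells. For TRBV13-2 against TRBV13-1, TRA length was -0.107 to 0.0383 and the expanded share -0.0325 to 3.30 without 1 library. The meninges libraries, with 286 and 326 clonotypes, limit what tissue and expansion comparisons can show.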
